A study of Mus musculus with 8 samples.

Results

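Transcripts of 10 immune checkpoint genes were followed across a mouse tumor and 3 cell populations sorted from it. The genes encode 5 ligand and receptor systems: the PD-1 ligands Cd274 (PD-L1) and Pdcd1lg2 (PD-L2), the CD28 and CTLA-4 ligands Cd80 and Cd86, the receptor Havcr2 (TIM-3) with its ligand Lgals9 (galectin-9), Cd47 with its receptor Sirpa, and Cd200 with its receptor Cd200r1. They were taken from the deposited expression table by gene symbol, and all 10 were found among its 23952 symbols. Their 13 transcripts were reduced to 1 per gene, the one with the highest mean over the libraries. All 10 passed the filter on low values, which 13311 symbols passed. Pdcd1lg2 passed it only through its 2 macrophage libraries, so that gene had to differ in them.

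The study sorted Lewis lung carcinoma (LLC) tumors. LLC is a cell line from a lung carcinoma of a mouse, and the injected line had been transfected with a pCEFL vector for the red fluorescent protein dTomato, sorted for it and kept under G418 selection. It was injected under the skin of both flanks of transgenic Col1a1-GFP mice, in which green fluorescent protein marks cells that use the promoter of a fibrillar collagen gene, and Alexa 647-collagen was injected into the tumors 24 h before the cells were taken. The groups, of 2 libraries each, were TAM (tumor-associated macrophages, sorted as F4/80-positive and collagen-positive cells without dTomato or GFP), Fibroblast (GFP-positive cells), LLC (dTomato-positive cells) and Total tumor (the whole tumor). All of them come from tumors of this 1 line in this 1 transgenic host, and no tissue without a tumor was compared. TAM therefore covers only macrophages that had taken up collagen, and Fibroblast only cells with an active collagen reporter. The sources used here do not give the age or sex of the mice. Whether both libraries of a group are from different animals is not stated in the labels, and the p-values then reflect only how far these libraries spread, which may be technical.

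Immune checkpoints are pairs of surface proteins that set how strongly T cells and macrophages respond. PD-L1, PD-L2, CD80 and CD86 on antigen-presenting cells bind receptors on T cells, and TIM-3 is an inhibitory receptor of T cells and of myeloid cells. CD47 on a target cell binds SIRP-alpha on a macrophage and restrains phagocytosis, and CD200 on stromal, endothelial and neuronal cells restrains myeloid cells through the CD200 receptor.

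The estimated depth was 8.54 to 10.37 M reads in the libraries numbered 1 and 4.28 to 4.72 M in those numbered 2, so in each group library 1 was the deeper. A single read on a transcript of 2 kb then equaled 0.048 to 0.117 RPKM, depending on the library. Marker lists set TAM and Fibroblast apart, but not LLC, which was sorted on dTomato. The summed RPKM of 10 macrophage markers was 13320 and 9868 in TAM, against 141 and 161 in Fibroblast, 64.7 and 328 in LLC, and 827 and 2708 in Total tumor. That of 8 fibroblast markers was 132 and 641 in TAM, 23930 and 22380 in Fibroblast, 3727 and 4965 in LLC, and 2755 and 2172 in Total tumor. The carcinoma list of keratins and adhesion genes summed to 11.2 and 13.1 RPKM in TAM, 25.8 and 191 in Fibroblast, 179 and 129 in LLC, and 129 and 302 in Total tumor, so LLC was not the highest. The 2 Total tumor libraries stood apart from each other by transcript length: the median log2 difference of library 2 minus library 1 over the shortest and the longest of 3 equal length classes was 0.66 and -0.52, where the same difference in TAM was -0.17 and 0.22. Results that rest on Total tumor are given with this in view.

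The clearest pattern was a macrophage one. Of the 10 genes, 6 were higher in TAM than in Fibroblast (Cd274, Pdcd1lg2, Cd86, Havcr2, Sirpa and Cd200r1), 1 was lower (Cd200) and 3 were not called, where 17.4% of all genes tested were called higher and 17.3% lower. Against LLC, 8 were higher in TAM and 2 were not called, with 15.4% of all genes tested called higher and 27.5% lower. Without Pdcd1lg2 these counts were 5 of 9 and 7 of 9. The median log2 difference of the members was 2.04 for TAM minus Fibroblast and 3.12 for TAM minus LLC, beside 0.13 and -0.38 over all genes tested. Fibroblast and LLC differed in fewer members: 4 were higher in Fibroblast (Cd80, Lgals9, Sirpa and Cd200) and 6 were not called, with 13% of all genes called higher and 25.7% lower, and the members' median was 0.01 beside -0.46 over all genes. Leaving out any single sorted library gave fewer members called between Fibroblast and LLC, and also fewer of all genes tested. Upper-quartile rescaling moved these all-gene medians to -0.10 for TAM minus Fibroblast, -0.21 for TAM minus LLC and -0.05 for Fibroblast minus LLC. It also turned the balance of all genes between Fibroblast and LLC, to 16.7% higher and 11.1% lower, where the same count of members was called higher (4). For TAM it gave 14.1% higher and 20.9% lower against Fibroblast and 17.4% higher and 21.7% lower against LLC, with 6 and 8 members higher. Quantile normalization gave 15.7% higher and 17.4% lower between Fibroblast and LLC, and 17.9% higher and 20.7% lower between TAM and LLC. These comparisons share libraries, and in bulk RNA fewer cells of a type and less RNA per cell cannot be told apart.

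**Figure D1:**
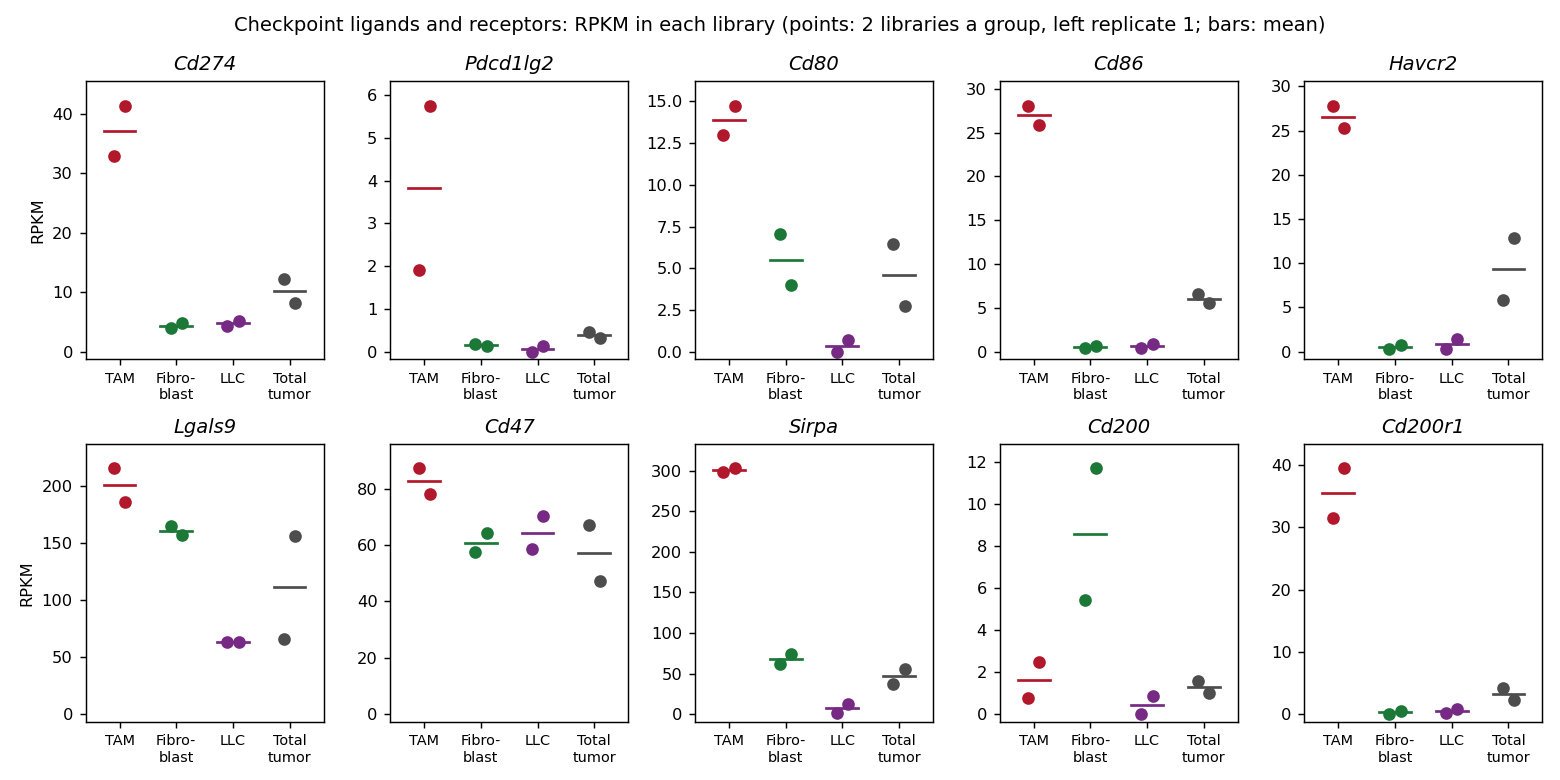
RPKM of each of the 10 checkpoint genes in each of the 8 libraries (points, 1 panel per gene, linear axes from 0), with TAM, Fibroblast, LLC and Total tumor from left to right and a bar at each group mean. Sirpa reached 298 and 303 RPKM in TAM, Cd200 lay highest in Fibroblast, and Cd47 lay between 47.3 and 87.2 RPKM in all 8 libraries.

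The windows around the transcription start are shown for 4 members: Cd274, Pdcd1lg2 and Havcr2, which were all higher in TAM than in both other sorted populations, and Lgals9, which was abundant in all of them. Each window runs from 250 bases before to 50 bases after the start (RefSeq, GRCm38.p6) and is written 5′ to 3′ on the strand of its gene. Capitals mark matches, on either strand, to 5 motifs: GAAA, any 2 bases and GAAA again (interferon regulatory factors, IRF), TTCNNNGAA (STAT factors), GAGGAA (the core of PU.1, the myeloid ETS factor), GGGA, any base and TTTCC (NF-kB), and TGANTCA (AP-1). The last is a loose form that takes any base at its center, so a match to it need not be an AP-1 site. The window of Cd274 lies on the plus strand at chr19:29367188-29367487, that of Pdcd1lg2 on the plus strand at chr19:29410669-29410968, that of Havcr2 on the plus strand at chr11:46454681-46454980 and that of Lgals9 on the minus strand at chr11:78984875-78985174.
Cd274: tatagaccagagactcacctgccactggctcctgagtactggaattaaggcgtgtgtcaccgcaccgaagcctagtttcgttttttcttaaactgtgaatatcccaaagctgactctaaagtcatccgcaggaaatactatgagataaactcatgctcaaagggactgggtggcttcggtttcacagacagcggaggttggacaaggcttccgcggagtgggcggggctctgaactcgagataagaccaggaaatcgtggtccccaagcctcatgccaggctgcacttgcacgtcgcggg
Pdcd1lg2: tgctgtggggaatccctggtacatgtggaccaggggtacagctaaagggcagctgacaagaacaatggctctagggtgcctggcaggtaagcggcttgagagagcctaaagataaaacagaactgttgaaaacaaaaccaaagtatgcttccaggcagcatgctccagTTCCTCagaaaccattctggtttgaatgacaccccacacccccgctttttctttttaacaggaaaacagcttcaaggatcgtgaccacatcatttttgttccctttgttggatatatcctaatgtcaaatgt
Havcr2: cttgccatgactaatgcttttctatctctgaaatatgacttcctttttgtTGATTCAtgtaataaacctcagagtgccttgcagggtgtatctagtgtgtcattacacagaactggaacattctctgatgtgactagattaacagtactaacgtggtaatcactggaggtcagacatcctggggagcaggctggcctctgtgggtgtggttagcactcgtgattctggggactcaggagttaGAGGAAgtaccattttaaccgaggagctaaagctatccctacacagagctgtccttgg
Lgals9: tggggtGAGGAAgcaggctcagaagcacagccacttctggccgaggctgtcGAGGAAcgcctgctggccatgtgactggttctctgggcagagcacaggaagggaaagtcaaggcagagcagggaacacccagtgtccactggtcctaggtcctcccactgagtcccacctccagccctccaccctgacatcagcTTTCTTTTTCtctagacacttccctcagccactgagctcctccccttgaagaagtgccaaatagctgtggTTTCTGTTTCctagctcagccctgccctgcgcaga

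The starts of Cd274 and Pdcd1lg2 lie 43.5 kb apart, so the PD-1 ligands are neighbors. The Cd274 window held none of the 5 motifs. The Pdcd1lg2 window held GAGGAA on the minus strand at positions -82 to -77, counted with the first transcribed base as 1, and the Havcr2 window held it at -8 to -3, with TGATTCA at -200 to -194. Of the 7 members with a window, Lgals9 was the 1 whose window held the IRF motif, in 2 copies on the minus strand at -55 to -46 and 16 to 25. It also held GAGGAA at -244 to -239 and -199 to -194. Among all 32851 RefSeq windows of this length, the IRF motif was present in 3.44%, GAGGAA in 28.3% and TGANTCA in 7.81%. The windows of Cd80 and Cd200 held 1 match each, TGATTCA at -42 to -36 in Cd80 and GAGGAA on the minus strand at 24 to 29 in Cd200, and those of Cd47 held none. TTCNNNGAA (8.3% of all windows) and the NF-kB motif (0.411%) matched no window of a member. No matches overlapped. No window was matched to Cd86, Sirpa or Cd200r1, so these members were not searched.

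Among the PD-1 ligands, Cd274 was the more abundant, and both were highest in TAM. Cd274 (NM_021893), whose protein PD-L1 inhibits T cells through PD-1, stood at 32.9 and 41.3 RPKM in TAM, 3.99 and 4.75 in Fibroblast, 4.29 and 5.19 in LLC, and 12.1 and 8.15 in Total tumor. The TAM libraries lay above all others, and those of Fibroblast and LLC overlapped. The log2 difference of TAM was 2.82 from Fibroblast (SE 0.28, adjusted p = 0.00021), 2.73 from LLC (SE 0.28, adjusted p = 0.000289) and 1.79 from Total tumor (SE 0.28, adjusted p = 0.0033), and all 3 were called under each of the 19 alternatives. Between Fibroblast and LLC the difference was -0.09 (95% interval -0.75 to 0.56, adjusted p = 0.818). Each of these populations carried Cd274 reads, about 150 and 81 in Fibroblast and 161 and 80 in LLC. In the order of the means, TAM was followed by Total tumor, LLC and Fibroblast. LLC lay below Total tumor without overlap (-0.94, 95% interval -1.59 to -0.29) but did not pass the adjusted threshold (adjusted p = 0.193), which it passed with the length correction (0.0474), in a range of 0.0474 to 0.695. Fibroblast was lower than Total tumor (-1.03, adjusted p = 0.0217), but without Fibroblast 1 or 2 the adjusted p was 0.127 or 0.0859, in a range of 0.00406 to 0.277 over the alternatives.

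Pdcd1lg2 (NM_021396), the second PD-1 ligand, reached 1.92 and 5.76 RPKM in TAM, 0.169 and 0.124 in Fibroblast, 0 and 0.137 in LLC, and 0.468 and 0.31 in Total tumor. The 2 TAM libraries, with about 27 and 42 reads, lay above every other library but far from each other. Pdcd1lg2 passed the filter only through these libraries, so a higher level in TAM was a condition of its being tested. The log2 difference of TAM was 1.95 from Fibroblast (SE 0.38, adjusted p = 0.00535), 2.06 from LLC (adjusted p = 0.00405) and 1.68 from Total tumor (adjusted p = 0.0132, and 0.0837 in a fit of only these 2 groups, in which other groups lend no estimate of the spread). Fibroblast and LLC carried 3 reads or fewer per library, where a difference between them was not detectable, and neither was called against Total tumor (-0.27 and -0.38, adjusted p = 0.591 and 0.739). Of 8 dendritic cell markers, 5 were higher in TAM 2 than in TAM 1 and 3 were lower. Their sum was 21.5 RPKM in TAM 1 and 40.3 in TAM 2, a gap to which Cd209a (4.43 and 14.7 RPKM) added the most. Their part in the level of Pdcd1lg2 was not tested. Per library, Pdcd1lg2 was 0.0583 and 0.139 times the RPKM of Cd274 in TAM, and 0.0423 and 0.0261 times in Fibroblast.

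The CD28 and CTLA-4 ligands parted from each other in fibroblasts. Cd86 (NM_019388), a costimulatory ligand of antigen-presenting cells, stood at 28.1 and 25.8 RPKM in TAM, 0.418 and 0.666 in Fibroblast, 0.456 and 0.828 in LLC, and 6.55 and 5.52 in Total tumor. The TAM libraries stood far above the rest and Total tumor lay between them and the other sorted cells, with no overlap. The log2 difference of TAM was 4.18 from Fibroblast (SE 0.27, adjusted p = 0.000104), 4.10 from LLC (adjusted p = 0.000119) and 1.99 from Total tumor (adjusted p = 0.00203), called under each of the 19 alternatives. Fibroblast was also lower than Total tumor under each of them (-2.19, adjusted p = 0.00116). LLC was lower than Total tumor (-2.10, adjusted p = 0.0224), a call lost in 7 of the 19 alternatives, among them without LLC 1 (-1.94, adjusted p = 0.149). Without either TAM or either Fibroblast library that adjusted p lay between 0.0682 and 0.092, in a range of 0.0126 to 0.269 over all alternatives. Fibroblast and LLC held 8 to 12 reads per library and did not differ beyond their spread (-0.09, 95% interval -0.72 to 0.55).

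Cd80 (NM_009855), which binds CTLA-4 more tightly than CD86 does, was also present in fibroblasts. It stood at 13.0 and 14.7 RPKM in TAM, 7.03 and 3.98 in Fibroblast, 0 and 0.687 in LLC, and 6.48 and 2.75 in Total tumor. The TAM libraries lay above all others, the Fibroblast and Total tumor libraries overlapped, and LLC was lowest. TAM was higher than LLC (log2 difference 3.52, SE 0.44, adjusted p = 0.000633) and so in each of the 19 alternatives. Fibroblast was higher than LLC as well (2.28, adjusted p = 0.00619), though without Fibroblast 1 or LLC 1 the adjusted p was 0.06 or 0.0543, in a range of 0.00262 to 0.06. TAM and Fibroblast did not pass the test (1.23, 95% interval 0.21 to 2.26, adjusted p = 0.0667), and the call was made in 4 alternatives, 2 of which left out Total tumor 1 or 2 (adjusted p = 0.028 each), in a range of 0.0244 to 0.351. TAM was called higher than Total tumor (1.49, adjusted p = 0.0344), but 9 of the 19 alternatives lost this call, including those without TAM 1 (0.111), TAM 2 (0.142), Fibroblast 1 (0.0586), Fibroblast 2 (0.0588) or Total tumor 2 (0.111) and that with a replicate block (0.0545), in a range of 0.012 to 0.203. LLC and Fibroblast were not called against Total tumor, with log2 differences of -2.03 (adjusted p = 0.0674) and 0.26 (adjusted p = 0.666). Cd86 was 2.16 and 1.75 times the RPKM of Cd80 in TAM, and 0.0595 and 0.167 times in Fibroblast.

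Cd80 in Fibroblast stood above what the macrophage markers showed there. Relative to the TAM mean, the 10 macrophage markers had a median of 1.23% in Fibroblast 1 and 1.6% in Fibroblast 2, with a highest value of 4.37 and 4.61%. Cd80 stood at 50.7 and 28.7% of its TAM mean in these libraries, Sirpa at 20.8 and 24.6%, and Cd274 at 10.8 and 12.8%. Cd86 (1.55 and 2.47%), Havcr2 (1.2 and 2.63%) and Cd200r1 (0.288 and 1.58%) lay below the highest marker. In LLC the marker medians were 0.486 and 3.27%, and the highest marker was the receptor tyrosine kinase Mertk, at 34.7 and 41.2%. The next was Cx3cr1, at 2.78 and 10.9%. Cd274 stood at 11.5 and 14.0% of its TAM mean in LLC, above all markers but Mertk, and Cd86 at 1.69 and 3.07%. The part of macrophage RNA in the Fibroblast and LLC values was not tested beyond these shares.

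**Figure D2:**
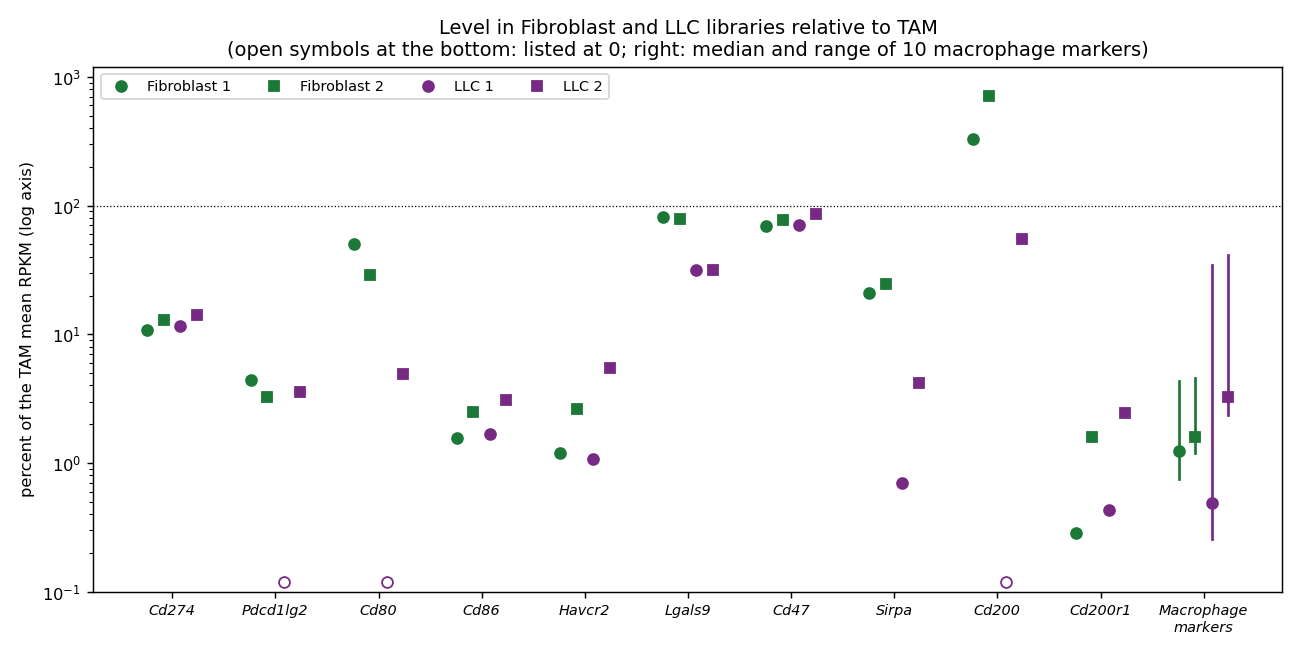
Level of each checkpoint gene in the Fibroblast and LLC libraries as a percentage of its mean RPKM in TAM, on a log axis, with open symbols at the bottom for values listed at 0, and at the right the median (symbol) and range (line) of the 10 macrophage markers. In Fibroblast, Cd80, Sirpa, Cd274, Lgals9, Cd47 and Cd200 lay above the highest macrophage marker (4.37 and 4.61%), Cd86, Havcr2 and Cd200r1 lay below it, and Pdcd1lg2 lay next to it (4.41 and 3.23%).

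The receptors of these ligands are T cell genes and were scarce. Pdcd1, which encodes PD-1, stood at 0.364 and 1.04 RPKM in TAM, 0.05 and 0 in Fibroblast, 0.05 and 0 in LLC, and 0.83 and 2.2 in Total tumor. Ctla4 reached 0.128 and 1.23 RPKM in TAM, 0.264 and 0.579 in Fibroblast, 0.264 and 0.256 in LLC, and 8.83 and 1.86 in Total tumor. Cd28 did not pass the filter, with at most 2.27 RPKM, in Total tumor 1. The highest level of Ctla4 and of Cd28 was thus in Total tumor 1, where the T and NK cell markers also summed to more (50.3 RPKM) than in Total tumor 2 (7.35 RPKM). Pdcd1 went the other way, with its highest level in Total tumor 2.

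Havcr2 and Lgals9 had different distributions: the receptor was a TAM transcript, and the ligand was abundant in every population. Havcr2 (NM_134250) stood at 27.8 and 25.3 RPKM in TAM, 0.318 and 0.697 in Fibroblast, 0.283 and 1.46 in LLC, and 5.84 and 12.8 in Total tumor. The groups TAM and Total tumor overlapped with no other group, and Fibroblast and LLC overlapped with each other. The log2 difference of TAM was 4.20 from Fibroblast (SE 0.44, adjusted p = 0.000254) and 3.95 from LLC (SE 0.44, adjusted p = 0.000387), both called under all 19 alternatives, as was Fibroblast minus Total tumor (-2.70, adjusted p = 0.00312). Fibroblast and LLC did not differ beyond their spread (-0.25, 95% interval -1.27 to 0.78). TAM was higher than Total tumor (1.5, adjusted p = 0.0333), but the call was lost in 8 alternatives, among them without each TAM library (0.137 and 0.111), each Fibroblast library (0.0679 and 0.0682) and Total tumor 1 (0.0994), in a range of 0.00977 to 0.137. LLC was lower than Total tumor (-2.45, adjusted p = 0.0371), a call that 11 of the 19 alternatives lost, including those without TAM 1 (0.0933), TAM 2 (0.0931), Fibroblast 1 (0.12), Fibroblast 2 (0.122), LLC 1 (0.248) or Total tumor 2 (0.105), in a range of 0.0188 to 0.308.

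Lgals9 (NM_001159301), a secreted galectin that binds TIM-3, stood at 216 and 186 RPKM in TAM, 165 and 157 in Fibroblast, 63.7 and 63.3 in LLC, and 66.1 and 156 in Total tumor. It lay above at least 92.0% of tested genes in each library of the sorted cells. The TAM and Fibroblast libraries did not overlap but differed by little, and LLC was lowest. Between TAM and Fibroblast the log2 difference was 0.31 (95% interval -0.59 to 1.22, adjusted p = 0.589), and quantile normalization turned it to -0.06. TAM was higher than LLC (1.64, SE 0.39, adjusted p = 0.0117), which became 0.0708 without TAM 1, 0.0666 without LLC 1 and 0.0636 without LLC 2, the only alternatives that lost the call. Fibroblast was higher than LLC (1.33, adjusted p = 0.0307), a call lost without any 1 of the 6 sorted libraries (adjusted p = 0.0531 without TAM 1, 0.0534 without TAM 2, 0.142 and 0.131 without Fibroblast 1 and 2, 0.133 and 0.118 without LLC 1 and 2). The difference itself stayed between 1.30 and 1.36 in those fits. The values of Total tumor 1 and 2 differed by more than those of any sorted group, and no call was made against them: TAM stood at 0.97 (adjusted p = 0.0907), LLC at -0.67 (adjusted p = 0.647) and Fibroblast at 0.66 (adjusted p = 0.209). Without Total tumor 2 the TAM and Fibroblast differences were 1.58 (adjusted p = 0.00241) and 1.27 (adjusted p = 0.00476), and without Total tumor 1 that of LLC was -1.29 (adjusted p = 0.0205). Both the TAM and the Fibroblast difference also passed with upper-quartile rescaling (adjusted p = 0.0192 and 0.0206), quantile normalization (0.0216 and 0.0148) and the length correction (0.0103 and 0.0168). The transcript has 1520 bases, and short transcripts were higher in Total tumor 2. The RPKM of Lgals9 was 7.75 and 7.37 times that of Havcr2 in TAM, 518 and 226 times in Fibroblast, 225 and 43.5 times in LLC, and 11.3 and 12.2 times in Total tumor. Havcr2 had only about 9 and 9 reads in Fibroblast and 8 and 17 in LLC, so the ratios there are imprecise.

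Cd47 was the 1 member that no comparison called, and its receptor Sirpa spanned the widest range of the 10 on the log2(RPKM + 1) scale. Cd47 (NM_010581), the signal on many cells that restrains their uptake by phagocytes, stood at 87.2 and 77.9 RPKM in TAM, 57.5 and 64.3 in Fibroblast, 58.5 and 70.4 in LLC, and 67.3 and 47.3 in Total tumor. The TAM libraries were the highest 2, and the other 3 groups overlapped. None of the 6 comparisons was called by limma: the log2 difference of TAM was 0.43 from Fibroblast (95% interval -0.16 to 1.03), 0.36 from LLC (-0.24 to 0.95) and 0.54 from Total tumor (-0.06 to 1.13), with adjusted p-values of 0.243, 0.298 and 0.142. Fibroblast minus LLC was -0.08 (-0.67 to 0.52), and it was 0.42 with upper-quartile rescaling and 0.13 with quantile normalization. Against Total tumor, Fibroblast stood at 0.11 and LLC at 0.18 (adjusted p = 0.759 and 0.802), and the length correction turned both signs (-0.16 and -0.07). After the length correction TAM was called higher than Fibroblast (0.64, adjusted p = 0.0272) and LLC (0.56, adjusted p = 0.0394), and without Total tumor 1 it was called higher than Total tumor (0.79, adjusted p = 0.0244). The adjusted p-values over all alternatives ranged from 0.0272 to 0.915 for Fibroblast, from 0.0394 to 0.705 for LLC and from 0.0244 to 0.38 for Total tumor.

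Sirpa (NM_001177646), the inhibitory receptor of macrophages for CD47, stood at 298 and 303 RPKM in TAM, 62.4 and 73.9 in Fibroblast, 2.12 and 12.6 in LLC, and 37.3 and 55.9 in Total tumor. It was graded without overlap, with TAM first, then Fibroblast, Total tumor and LLC. It lay above 98.5 and 98.8% of tested genes in TAM, 93.6 and 95.1% in Fibroblast, and 22.3 and 58.0% in LLC. TAM was higher than LLC (log2 difference 5.53, SE 0.60, adjusted p = 0.000355) and Fibroblast was higher than LLC (3.40, SE 0.60, adjusted p = 0.00432), both under all 19 alternatives. TAM was also called higher than Fibroblast (2.13, SE 0.60, adjusted p = 0.0274), although 7 alternatives lost this call, among them leaving out TAM 1 (0.115), TAM 2 (0.11), Fibroblast 1 (0.148) or Fibroblast 2 (0.114), in a range up to 0.148. The difference in those 4 fits stayed between 2.01 and 2.25. Against Total tumor, TAM was higher (2.69, adjusted p = 0.0122, and 0.0646 and 0.0641 without TAM 1 and 2), Fibroblast was not called (0.56, adjusted p = 0.479) and LLC was not called (-2.84, adjusted p = 0.0609). Without LLC 2 the LLC difference was -3.91 (adjusted p = 0.0116), and without Total tumor 1 it was -3.13 (adjusted p = 0.0389). The 2 LLC libraries differed in the same order as their macrophage markers, whose median was 0.486% of TAM in LLC 1 and 3.27% in LLC 2, beside 0.705 and 4.21% for Sirpa. That their difference comes from macrophage RNA was not tested. Sirpa shares sequence with Sirpb1a and Sirpb1b, and the sources used here do not say how reads common to them were counted. Sirpa was 3.42 and 3.89 times the RPKM of Cd47 in TAM, 1.09 and 1.15 times in Fibroblast, and 0.0362 and 0.179 times in LLC.

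Cd200 and its receptor were highest in different populations. Cd200 (NM_010818), a ligand that restrains myeloid cells, stood at 0.797 and 2.48 RPKM in TAM, 5.42 and 11.7 in Fibroblast, 0 and 0.895 in LLC, and 1.58 and 0.994 in Total tumor. The Fibroblast libraries lay above all others, and TAM overlapped with both LLC and Total tumor. Fibroblast was higher than LLC under all 19 alternatives (log2 difference 2.71, SE 0.49, adjusted p = 0.00485). It was higher than Total tumor (1.99, adjusted p = 0.0156), a call lost in 3 alternatives, without Fibroblast 2 (0.112) or Total tumor 2 (0.0533) and with a pseudocount of 0.1 (0.0983), in a range of 0.00615 to 0.112. TAM was lower than Fibroblast (-1.85, SE 0.49, adjusted p = 0.0216), again lost in 3 alternatives, without TAM 1 (0.15) or Fibroblast 2 (0.155) and with a pseudocount of 0.1 (0.135), in a range of 0.0126 to 0.155. TAM was not called against LLC (0.86, adjusted p = 0.2) or Total tumor (0.14, adjusted p = 0.853), nor LLC against Total tumor (-0.72, adjusted p = 0.681).

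Cd200 was higher in Fibroblast 2 than in Fibroblast 1, and 3 epithelial genes differed between these libraries in the same direction. Krt19, a keratin, stood at 16.5 RPKM in Fibroblast 1 and 99.6 in Fibroblast 2, Epcam at 0.328 and 8.93, and Krt7 at 0.975 and 11.6. Without Fibroblast 2, Cd200 was still called higher in Fibroblast than in LLC, with an adjusted p of at most 0.0458 over all alternatives. Estimated reads of Cd200 were about 132 and 130 in these libraries, whose depths differed. Pericyte markers moved with the Fibroblast group, at summed levels of 1.17 and 1.88 RPKM in TAM, 140 and 101 in Fibroblast, 1.49 and 4.11 in LLC, and 11.9 and 5.09 in Total tumor. All 6 were called higher in Fibroblast than in each other group. Of them, Higd1b and Cspg4 reached 1 RPKM only in Fibroblast, and Abcc9 elsewhere only in Total tumor 1 (1.54). These markers passed the filter only through Fibroblast, so a higher level there was a condition of their being tested. Endothelial markers, of a cell type known to carry CD200, did not move as one. Of 7 tested, 5 were higher in Fibroblast than in LLC, while against Total tumor 2 were higher and 1 was lower, with a list median of -0.88. Among the tested ones, Tek also passed the filter only through Fibroblast. Tek (20.2 and 31.4 RPKM) and Kdr (16.8 and 10.2) made up most of their sum in Fibroblast, and Pecam1 stood at 10.8 and 16.5 RPKM in TAM, 6.51 and 3.58 in Fibroblast, 0.38 and 1.63 in LLC, and 14.0 and 14.7 in Total tumor. The part of pericyte, endothelial or epithelial transcripts in the level of Cd200 was not tested.

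Cd200r1 (NM_021325), the inhibitory CD200 receptor of myeloid cells, stood at 31.5 and 39.4 RPKM in TAM, 0.102 and 0.559 in Fibroblast, 0.153 and 0.865 in LLC, and 4.29 and 2.25 in Total tumor. The TAM libraries were far above all others, and Fibroblast and LLC, with 2 to 7 reads per library, overlapped (log2 difference -0.16, 95% interval -1.05 to 0.73). The log2 difference of TAM was 4.79 from Fibroblast (SE 0.38, adjusted p = 0.000125), 4.63 from LLC (adjusted p = 0.000154) and 3.13 from Total tumor (adjusted p = 0.00144), and all 3 held under the 19 alternatives. Fibroblast was lower than Total tumor (-1.66, adjusted p = 0.0118, and 0.0934 without Fibroblast 1), and LLC was not called against it (-1.5, adjusted p = 0.115). Its paralog Cd200r4, an activating receptor of the same family, was also called higher in TAM (TAM minus Fibroblast 3.50, adjusted p = 0.000289). Outside TAM, however, it reached 1 RPKM only in Total tumor 1 (2.00). It thus passed the filter only through TAM, and a higher level there was a condition of its being tested. Reads common to both genes also make their split uncertain. Within Fibroblast, Cd200 was 53.1 and 20.9 times the RPKM of Cd200r1, and within TAM it was 0.0253 and 0.0628 times.

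**Figure D3:**
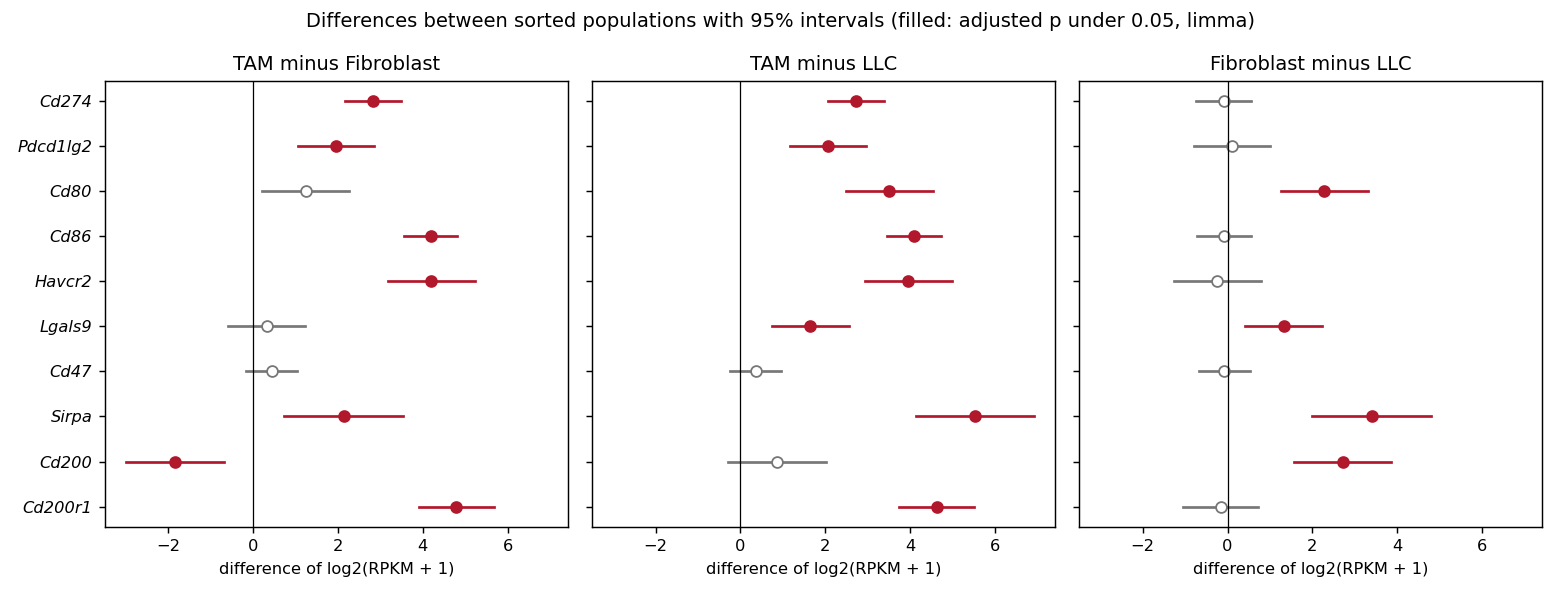
Log2 difference of each checkpoint gene, on log2(RPKM + 1), for TAM minus Fibroblast, TAM minus LLC and Fibroblast minus LLC, with 95% intervals from limma; filled points had an adjusted p under 0.05. Cd86, Havcr2 and Cd200r1 lay above 3.9 in both TAM comparisons and close to 0 between Fibroblast and LLC, and the intervals of Cd47 include 0 in all 3.

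Set against the whole tumor, the calls of members differed between the sorted populations. TAM was higher in 7 of the 10 and not called in 3 (Lgals9, Cd47 and Cd200), where 11.3% of all genes tested were called higher and 23.9% lower, and in 6 of 9 without Pdcd1lg2. Fibroblast was lower in 4 (Cd274, Cd86, Havcr2 and Cd200r1) and higher in 1 (Cd200). There 30% of all genes were called lower and 12.1% higher, so the Fibroblast counts lay near the shares of all genes. LLC was lower in 2 (Cd86 and Havcr2), where 2.3% of all genes were called lower and 0.0526% higher. The median log2 difference of the members was 1.59 for TAM minus Total tumor, -0.08 for Fibroblast and -1.22 for LLC, beside -0.36, -0.51 and -0.03 over all genes. The member counts for TAM, Fibroblast and LLC fell in some of the fits without 1 library, and that for LLC rose in others. The number of all genes called also moved in these fits, and the ranges of both are given below. Upper-quartile rescaling moved the all-gene medians to -0.12 for TAM, -0.0075 for Fibroblast and 0.05 for LLC. With it, 16.9% of all genes were higher and 13.2% lower in Fibroblast, with 2 members higher and 3 lower, and 14.5% were higher and 16.9% lower in TAM, with 8 members higher. Quantile normalization gave 16.8% higher and 18.2% lower in Fibroblast, and 15.7% higher and 15.4% lower in TAM. The RPKM of Cd86 in Total tumor was 24.3 and 20.5% of its TAM mean, that of Cd274 32.7 and 22.0%, that of Havcr2 22.0 and 48.4%, and that of Cd200r1 12.1 and 6.34%. The macrophage markers had a median of 10.1 and 22.4% there. Neutrophil markers summed to 69.2 and 60.4 RPKM in TAM, against 133 and 597 in Total tumor, and B cell markers to 59.0 and 17.6 in TAM, against 54.4 and 2.30 in Total tumor, so the whole tumors also differed in other leukocyte transcripts. Their part in the Total tumor values was not tested.

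The likeness of patterns over the 8 libraries was also ranked. Among 8362 genes with at least 10 RPKM in some group, the one most like Cd274 was Cd200r1 (Pearson r = 0.998), and Cd274 was in turn the most like Cd200r1. The next for Cd274 was Iqgap2, a scaffold protein gene (r = 0.998). Cd86 was most like Treml2, Blnk and Btk (r = 0.997, 0.997 and 0.996), of which Blnk and Btk encode signaling proteins of B cells and myeloid cells. Havcr2 was most like AB124611 (r = 0.998), Dpep2 and Cd48 (r = 0.997 each). Pdcd1lg2 was most like Ear2, an eosinophil-associated ribonuclease of a family with near-identical copies (r = 0.984). The gene most like Cd80 was Icosl, the ligand of the costimulatory receptor ICOS (r = 0.991). Sirpa resembled Smpdl3a and the TNF receptor gene Tnfrsf1b (r = 0.997 each), and Lgals9 resembled Pdlim4 (r = 0.991). The likeness was lower for Cd47, whose nearest gene was March5 (r = 0.959), and for Cd200, whose nearest were Prr33 (r = 0.964) and Krt19 (r = 0.963). The 8 libraries form 4 groups by sort, with library 1 the deeper in each. These values therefore describe the groups more than single libraries, and no test was made of them.

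Beyond the 10 members, 8 lists of related genes were counted in the sorted populations. Beside these counts, 17.4% of all genes tested were called higher and 17.3% lower in TAM than in Fibroblast, 15.4% higher and 27.5% lower in TAM than in LLC, and 13% higher and 25.7% lower in Fibroblast than in LLC. Cd200r4, Sirpb1b, Timd4 and Cd226 passed the filter only through TAM, so a higher level there was a condition of their being tested. They are counted as higher in TAM in their lists. In the rest of the B7 and CD28 family, 7 of 10 genes could be tested. TAM was higher than Fibroblast in 1 and lower in 1, and higher than LLC in 2 and lower in 1. The gene listed as 4632428N05Rik, the older symbol of Vsir (VISTA, an inhibitory B7 family protein), stood at 132 and 153 RPKM in TAM, 8.16 and 12.6 in Fibroblast, and 4.45 and 9.33 in LLC (log2 difference 3.68 from Fibroblast and 4.25 from LLC, adjusted p = 0.000199 and 0.000166). Cd276 (B7-H3, a B7 family ligand) lay the other way, at 8.44 and 4.49 RPKM in TAM, 45.7 and 39.7 in Fibroblast, and 42.5 and 42.3 in LLC (-2.60 and -2.59, adjusted p = 0.000314 and 0.000376). Icosl was graded like Cd80, at 18.0 and 16.7 RPKM in TAM, 9.39 and 8.76 in Fibroblast, and 1.75 and 2.89 in LLC. It was higher in TAM (2.49, adjusted p = 0.000545) and in Fibroblast (1.62, adjusted p = 0.00524) than in LLC. The B7 ligands thus differed in direction: Cd86, Cd274 and the VISTA gene were highest in TAM, and Cd276 was lower there than in both other populations. Among 6 tested genes of the other lymphocyte checkpoint receptors and nectin ligands, TAM was higher than Fibroblast in 1 and lower in 2, and higher than LLC in 1 and lower in 1. In this list 1 of 3 calls against Fibroblast and 1 of 2 against LLC held in every alternative. Pvrl3, the older symbol of Nectin3, a cell adhesion protein, had 0.343 and 1.09 RPKM in TAM, 15.2 and 14.8 in Fibroblast, and 16 and 16.4 in LLC (-3.26 and -3.36, adjusted p = 0.000159 and 0.000176).

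Among the listed partners of the CD47 axis, more were higher in TAM than were lower, and 3 were not called against Fibroblast and 4 against LLC. Of 12 tested, 7 were higher and 2 lower than in Fibroblast, and 7 were higher and 1 lower than in LLC, with a list median of 2.35 and 3.16 beside 0.13 and -0.38 over all genes. The phagocytic receptor gene Fcgr3 stood at 724 and 718 RPKM in TAM, 8.27 and 13.8 in Fibroblast, and 2.57 and 17.1 in LLC (log2 differences 5.95 and 6.49, adjusted p = 0.000603 and 0.000457). The integrin gene Itgam followed (5.84 and 6.05, adjusted p = 0.000336 and 0.000354). The thrombospondins, secreted ligands of CD47, differed from each other. Thbs1 stood at 228 and 245 RPKM in TAM, 88.1 and 49.2 in Fibroblast, and 5.97 and 10.9 in LLC, with TAM higher than LLC (4.70, adjusted p = 0.000177) and Fibroblast higher than LLC (2.88, adjusted p = 0.00175). Thbs2 had 2.55 and 7.11 RPKM in TAM and 294 and 252 in Fibroblast (-5.67, adjusted p = 0.000134). Among 4 tested genes of the CD200 receptor family and its adaptors, 2 were higher in TAM than in Fibroblast and than in LLC. They were Cd200r4, which passed the filter only through TAM, and the adaptor gene Dok2 (log2 5.84 and 5.90, adjusted p = 0.000993 and 0.00104).

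Of 6 tested TIM and galectin partners, 3 were higher in TAM than in Fibroblast, and 3 were higher and 2 lower than in LLC. In this list 2 of 3 calls against Fibroblast and 2 of 5 against LLC held in every alternative. Lgals3, a galectin of activated macrophages, stood at 1320 and 943 RPKM in TAM, 89.7 and 77.6 in Fibroblast, and 120 and 133 in LLC (log2 differences 3.72 and 3.14, adjusted p = 0.000614 and 0.00154). Ceacam1, an adhesion receptor, had 8.81 and 8.46 RPKM in TAM and at most 0.445 in Fibroblast and LLC (2.98 and 2.92, adjusted p = 0.000145 and 0.000177). In TNF family costimulation, 3 of 6 tested genes were higher in TAM than in Fibroblast and 3 than in LLC, led by Cd40, a receptor through which T cells activate macrophages (3.85 and 4.20, adjusted p = 0.000287 and 0.000254). Of these calls, 1 of 3 against Fibroblast and 2 of 3 against LLC held in every alternative. Tnfsf9 against Fibroblast (1.17, adjusted p = 0.0436, range 0.0143 to 0.268) lost its call in 11 of 19, and Tnfrsf9 against LLC (1.21, adjusted p = 0.047, range 0.0259 to 0.229) in 9 of 19. Of 10 tested interferon-gamma and PD-L1 regulators, 4 were higher and 1 lower in TAM than in Fibroblast, and 5 higher and 1 lower than in LLC, of which 1 of 5 and 4 of 6 calls held in every alternative. Their largest difference was that of Irf8, a transcription factor of myeloid cells, at 83.2 and 64.6 RPKM in TAM, 2.45 and 3.81 in Fibroblast, and 1.5 and 4.54 in LLC (4.19 and 4.32, adjusted p = 0.000199 and 0.000229). Cmtm4, which encodes a protein related to the PD-L1 stabilizer CMTM6, was lower in TAM than in LLC (-2.30, adjusted p = 0.000588).

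The list of other suppressive ligands and enzymes had the highest medians of the 8. Of 11 tested genes, 8 were higher in TAM than in Fibroblast and 9 than in LLC, with medians of 3.21 and 4.39. Arg1, an enzyme that breaks down arginine, stood at 1230 and 1661 RPKM in TAM, 7.92 and 19.9 in Fibroblast, and 5.63 and 34.9 in LLC (log2 differences 6.71 and 6.54, adjusted p = 0.000474 and 0.000596). Lilrb4, an inhibitory receptor of myeloid cells, was at 398 and 315 RPKM in TAM, 3.28 and 6.13 in Fibroblast, and 1.91 and 11.4 in LLC (6.01 and 5.88, adjusted p = 0.000266 and 0.000348). Entpd1, which encodes CD39, an enzyme that degrades extracellular ATP, had 13.6 and 24.6 RPKM in Fibroblast and 0.642 and 2.39 in LLC (3.04, adjusted p = 0.00129). Between Fibroblast and LLC this list had 3 genes higher of 11, the CD47 partners 3 higher and 1 lower of 12, and the TIM and galectin partners 2 lower of 6. The B7 and CD28 family had 1 higher of 7, the lymphocyte receptors and nectins 1 higher of 6, the CD200 receptor family 1 lower of 4, and the interferon-gamma list 1 higher and 1 lower of 10. In the TNF family limma called 0 of 6, and 0 had an unadjusted p under 0.05. Of the calls between Fibroblast and LLC, those of Entpd1, Thbs1, Icosl and Pvrl2 held in every alternative. Apart from Tnfsf9 and Tnfrsf9, each gene of the related lists named with its own test above kept its call in every alternative run for it.

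**Figure D4:**
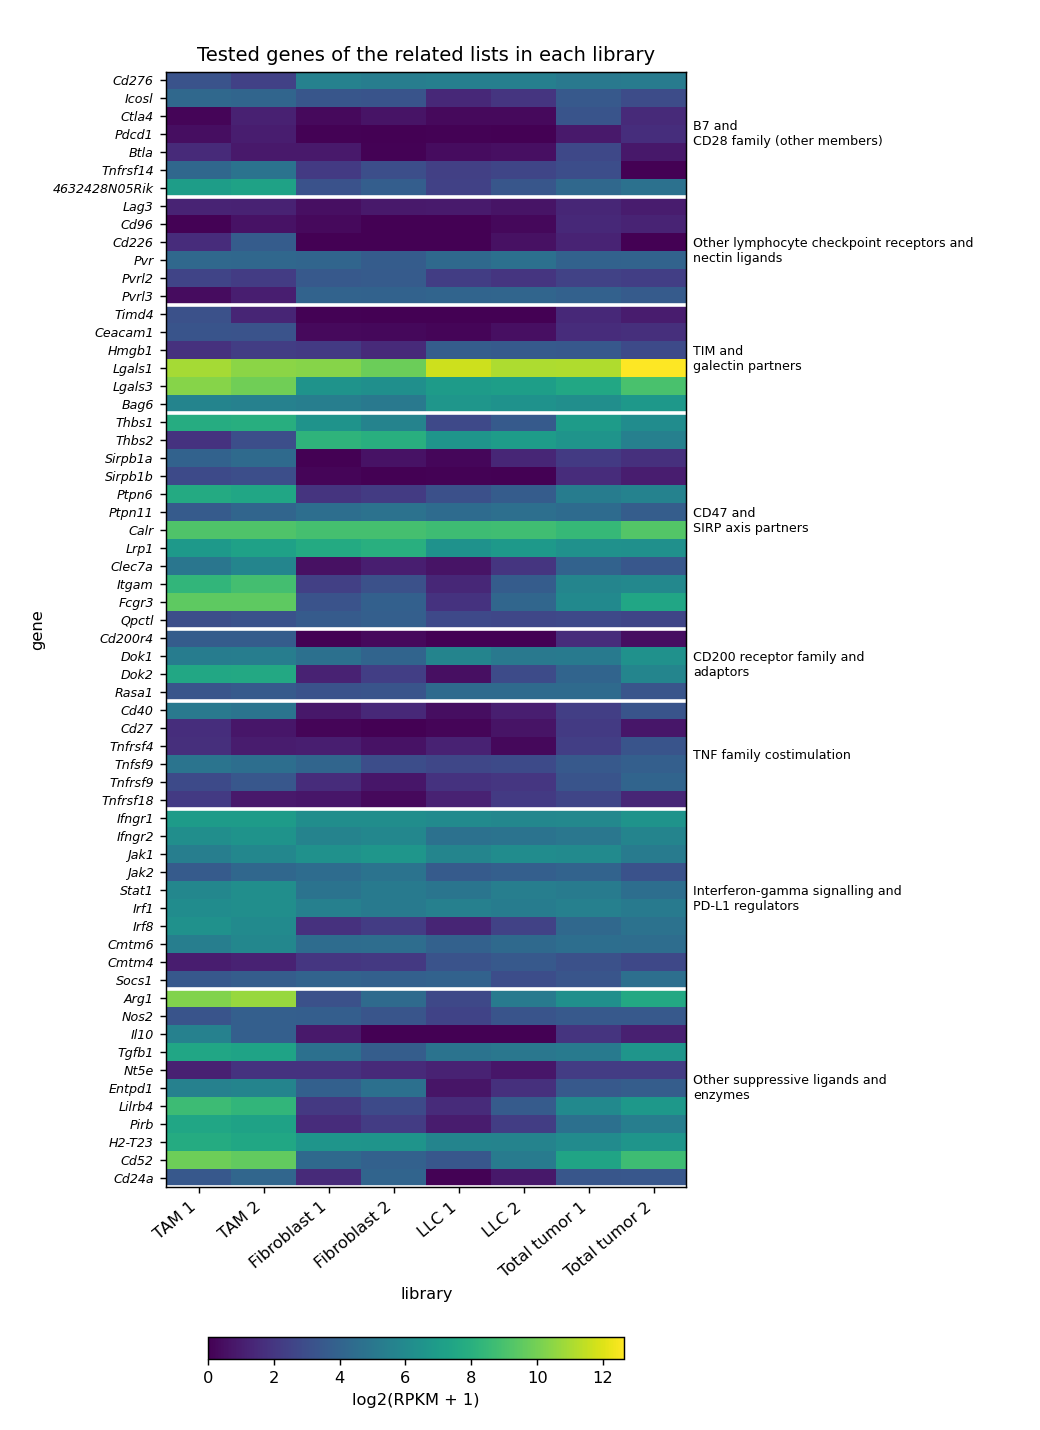
Heat map of log2(RPKM + 1) for each tested gene of the 8 related lists (rows, grouped by list) in each library (columns, TAM first and Total tumor last). The VISTA gene 4632428N05Rik, Ptpn6, Itgam, Fcgr3, Dok2, Arg1 and Lilrb4 are brightest in the 2 TAM columns, and Cd276, Pvrl3 and Thbs2 are darkest there.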

How the data were processed

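Polyadenylated RNA was sequenced from 8 libraries in 4 groups, which were taken from the labels. The authors deposited RPKM values (reads scaled to the transcript's length and to the library's total) for 31645 RefSeq transcripts. The submitters' processing notes name STAR, HOMER and the build mm9, without versions. The sources used here do not give the strand setting, the handling of reads that map to several places or the reads behind the total, so genes with near-identical copies are uncertain. RPKM are not counts, and depth was estimated from the steps of the lowest values.

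Each of 23952 symbols was represented by its transcript of highest mean RPKM, and 3 transcripts without a name (at most 0.0032% of a library's summed RPKM) were left out. The 13311 symbols with at least 1 RPKM in at least 2 libraries were tested on log2(RPKM + 1) with limma 3.58.1 in R 4.3.3. One fit with a mean-variance trend covered all 8 libraries (4 residual degrees of freedom, prior 3.62). Tests were two-sided, p-values were adjusted by Benjamini-Hochberg over all 13311 genes, and an adjusted p under 0.05 was called. Fold changes on this scale understate the change of low genes. The procedure was tested on simulated data.

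The 10 members are named in every comparison. The receptors Pdcd1, Cd28 and Ctla4 are given by their levels, without tests. From each of 8 lists of related genes, up to 3 called genes per comparison with the largest absolute difference could be named. The cell type markers Cd209a, Krt19, Epcam, Krt7, Mertk, Cx3cr1, Tek, Kdr, Pecam1, Higd1b, Cspg4 and Abcc9 are named outside this rule and were chosen after their values were seen. Sirpb1b of the CD47 list is named outside it as well. Likeness was ranked by Pearson correlation over the 8 libraries among tested genes with a group mean of at least 10 RPKM. The members and lists were chosen with earlier results of these data known. Promoter windows come from RefSeq (GRCm38.p6), a later build than that of the RPKM table, and matched 7 of the 10 members by symbol. They were searched on both strands for 5 motifs.

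Alternatives were pseudocounts of 0.1 and 5, no filter, a filter at 5 RPKM, upper-quartile rescaling, quantile normalization, no variance trend, only the groups compared, the replicate number as a block, the mean over transcripts, and leaving out each library. One more, a correction for transcript length, was chosen after seeing a length dependence of Total tumor 2. The labels do not say that the replicate number marks a shared animal or day.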

Additional observations from a re-analysis of the deposited data

How the results depend on the processing

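With 2 libraries per group the test rests on a pooled spread, and a difference that was not called is not shown to be absent. Low members in Fibroblast and LLC rest on few reads, and the counts for LLC minus Total tumor moved under many of the alternatives. Each fit without 1 library assumes that the lone library of its group varies like the other groups. Over the 19 alternatives (18 for Pdcd1lg2, which fails a filter at 5 RPKM), 1021 of the single-gene results of the 10 members kept their direction and side of the threshold, 68 lost a call, 21 gained one and 24 changed sign, all of them without a call. The cause of these changes was not tested.

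The log2 differences that changed sign were small in all cases, and none was called. For Fibroblast minus LLC, upper-quartile rescaling gave 0.32 for Cd274, 0.10 for Cd86 and 0.42 for Cd47, and quantile normalization gave 0.19 for Cd274, 0.13 for Cd47 and -0.014 for Pdcd1lg2. Quantile normalization gave -0.062 for Lgals9 in TAM minus Fibroblast, and the length correction gave -0.073 for Cd47 in LLC minus Total tumor and -0.16 in Fibroblast minus Total tumor. Leaving out each library in turn, Fibroblast minus LLC ranged from -0.21 to 0.020 for Cd274, -0.25 to 0.078 for Cd86, -0.72 to 0.22 for Havcr2, -0.21 to 0.056 for Cd47 and -0.51 to 0.19 for Cd200r1. TAM minus Total tumor ranged from -0.34 to 0.62 for Cd200, LLC minus Total tumor from -0.068 to 0.43 for Cd47, and Fibroblast minus Total tumor from -0.14 to 0.35 for Cd47 and -0.24 to 0.76 for Cd80.

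Counts of members called stayed between 5 and 8 for TAM minus Fibroblast and between 7 and 8 for TAM minus LLC without each library. Fibroblast minus LLC then had 2 to 4. Against Total tumor, TAM had 4 to 7, LLC 0 to 4 and Fibroblast 3 to 5. Over all genes the ranges were 3120 to 6110, 3418 to 7354, 2306 to 7146, 2389 to 5990, 0 to 2420 and 2366 to 7193 in the same order. A fit of only the groups compared called 4 members and 1905 genes for TAM against Total tumor and 3220 genes for Fibroblast against it. For LLC minus Total tumor limma called 2 members and 313 genes, and 1 member with a pseudocount of 0.1, a pseudocount of 5 or quantile normalization and 4 with the length correction. It called 180 genes with a pseudocount of 5 and 202 with upper-quartile rescaling. Without a filter it called 0 members and 12 genes, and with only the groups compared 0 members and 0 genes, where 6 and 5 members and 1638 and 1026 genes had an unadjusted p under 0.05. The 0 calls without a library stood beside 5 or 6 members with an unadjusted p under 0.05.

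With a replicate block limma called 7 members for TAM minus Fibroblast, 8 for TAM minus LLC, 4 for Fibroblast minus LLC and, against Total tumor, 6 for TAM, 2 for LLC and 5 for Fibroblast. The 1 member call lost was Cd80 in TAM minus Total tumor (adjusted p = 0.0545). Deviations of libraries with the same number correlated by 0.162 to 0.274 among the 3 sorted groups, each over 0.1, and by -0.361 to -0.179 with Total tumor. The labels give no shared animal or day, and library 1 was the deeper in every group, so a shared origin and depth cannot be told apart. With the block the sorted comparisons called 4153, 5078 and 4393 genes, and no member call among them changed.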
